A study of Mus musculus with 24 samples.

Results

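The 10 tubulin genes Tuba1a, Tuba1b, Tuba1c, Tubb2a, Tubb2b, Tubb3, Tubb5, Tubb6, Tubg1 and Tube1 were followed by every array probe whose annotated symbol is 1 of these names, 14 of the 46643 probes on the array. The 14 probes covered 9 of the 10 genes, out of 19406 genes with a probe. No probe was annotated to Tuba1c, which was not analysed here. Embryonic heads of (C3H/HeH x 101/H)F1 mice were cut along the midline at stages E8.5, E10.5 and E12.5 (E for embryonic, with the days post coitum, dpc), and total RNA of each side was hybridised to Illumina whole-genome bead arrays. Each stage holds 4 embryos with 1 array for the left and 1 for the right side, so 24 arrays came from 12 embryos, all untreated and of the same cross. The labels call the tissue brain, while the methods of the study describe whole heads without the body, so the RNA pools the cells of the neural tube and of the surrounding head tissue.

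Microtubules are hollow filaments built from dimers of an alpha and a beta tubulin, and mammals carry several genes for each, the isotypes, whose products are nearly identical over most of their length and differ mainly at the C-terminal tail. Tuba1a and Tubb2b are abundant in newborn neurons and their mutations disturb neuronal migration, Tubb3 is a classical marker of neurons, and Tuba1b, Tubb5 and Tubb6 are expressed in many dividing cells. Gamma tubulin, the product of Tubg1, seeds new microtubules at the centrosome, and epsilon tubulin, the product of Tube1, is needed for the triplet microtubules of the centriole.

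The genes lie in 2 clusters and at scattered sites (coordinates of GRCm38.p6 from the RefSeq table). Tuba1b (chr15:98931429-98934390), Tuba1a (chr15:98949847-98953501) and Tuba1c (chr15:99029891-99038105) are neighbours, with 15456 bp between Tuba1b and Tuba1a. Tubb2a (chr13:34074278-34078008) and Tubb2b (chr13:34127008-34130354) are 48999 bp apart. The others are single genes: Tubb3 (chr8:123411553-123422015), Tubb5 (chr17:35833920-35838301), Tubb6 (chromosome 18), Tubg1 (chr11:101119904-101126423) and Tube1 (chr10:39133949-39151058).

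The deposited values are probe intensities after background subtraction. Their array means ran from 149.1 to 323.2, and 37.6% to 45.2% of an array's probes were not above 0. Levels below are quantile normalized signals, taken as the mean of an embryo's left and right arrays, and 0 means no signal above background. A log2FC is the LIMMA estimate on log2(signal + 119.5), where the constant keeps negative values positive, and it understates the change of dim probes. A probe rose or fell where its p, adjusted after Benjamini-Hochberg across the 46643 probes, was under 0.05, and B is the LIMMA log odds of a difference. The probes of a gene are numbered from the brightest, and levels of different probes cannot be set against each other. The sequences of the probes were not used, so binding of near-identical transcripts of other tubulin genes to a probe was not tested. The arrays were divided into 4 sets of 6 by side and by replicate number (1 and 2, or 3 and 4). The sample labels name no chip or batch, so whether these sets are technical batches is not known. The second principal component, with 27.4% of the variance, was between 20.35 and 31.92 in the right sides of replicates 1 and 2 and between −47.24 and −28.38 in those of replicates 3 and 4, with the left sides between. Every stage is equally represented in the 4 sets.

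Between E8.5 and E12.5, Tuba1a and Tubb2b rose and Tube1 fell, while Tubb3 and the brightest Tubb5 probe passed no comparison of stages. At E10.5 versus E8.5, 4 of the 14 probes rose and 1 fell, where 4.91% of all probes rose and 5.8% fell. At E12.5 versus E10.5, 3 rose and 1 fell (5.92% and 4.51% of all probes), and over the whole interval, at E12.5 versus E8.5, 7 rose and 2 fell (9.84% and 11% of all probes). In the left sides alone, 1 probe rose and 3 fell at E12.5 versus E10.5, and in the right sides alone 3 rose and 1 fell. The median log2FC of the 14 probes over the whole interval was 0.16, against −0.01 over all probes. The 7 probes that rose belong to Tuba1a, Tuba1b, Tubb2a, Tubb2b and Tubb5, and those that fell to Tubg1 and Tube1. The results of the study name a log2FC over 2 with a B over 2. A single probe passed this, probe 3 of Tubb2b, at E10.5 versus E8.5 (0.0643% of all probes, higher) and at E12.5 versus E8.5 (0.39%). The methods of the study instead ask for a B over 2 in all pairwise comparisons, without a fold change. Tuba1a (B = 8.70, 9.13 and 22.1 in the order above) and Tube1 probe 1 (7.04, 10.8 and 22.1) met that. Probe 3 of Tubb2b did not, with a B of 1.20 at E12.5 versus E10.5. The share of all probes that met it was not computed.

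**Figure D1:**
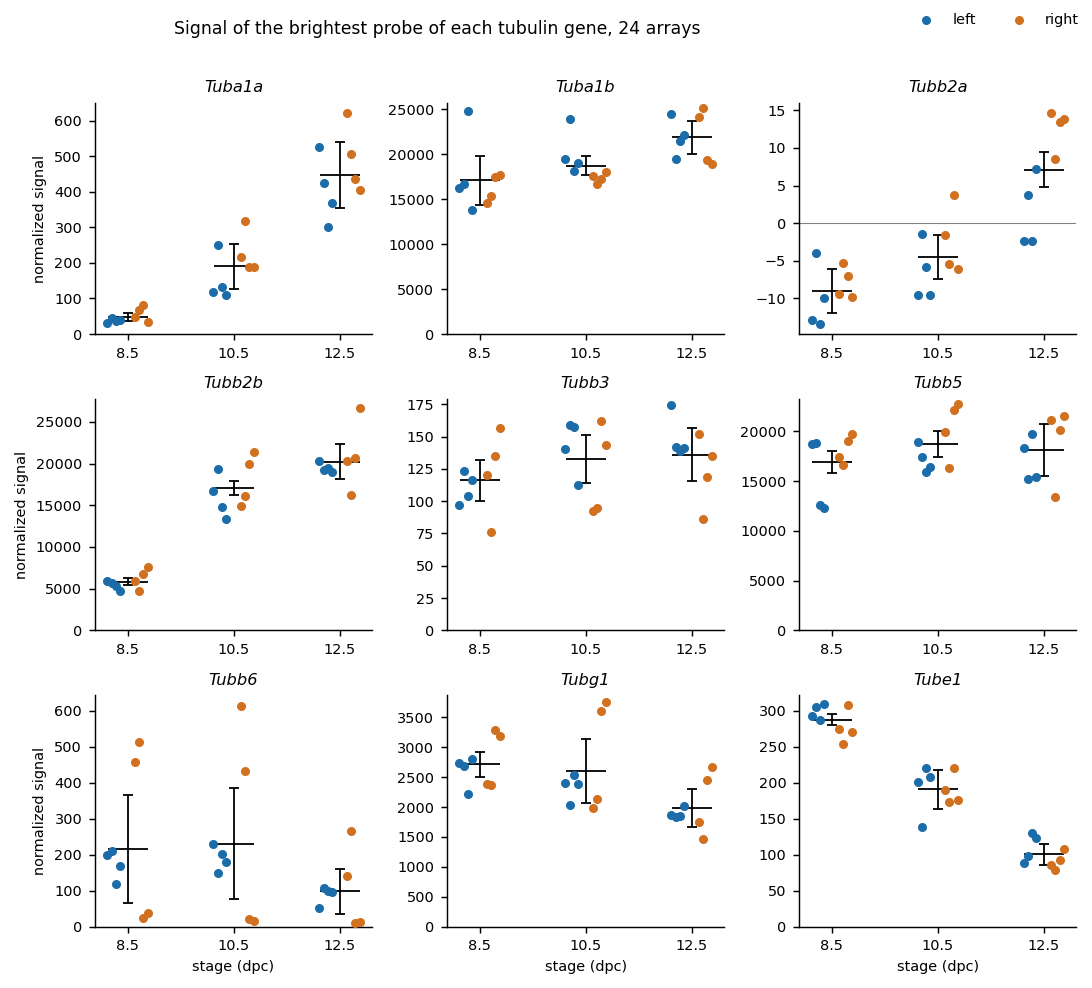
Normalized signal of the brightest probe of the 9 measured genes on 24 arrays, by stage (dpc), with left sides in blue and right sides in orange; bars are the mean and SD of 4 embryos. Tuba1a embryo means are at or below 59.1 at E8.5 and at or above 368 at E12.5, Tube1 is lower at each later stage, and the Tubb6 points split by side and embryo within every stage.

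Tuba1a, the main alpha tubulin of migrating neurons, rose at each step. Its signal in embryos 1 to 4 was 38.6, 57.2, 59.1 and 36.7 at E8.5, 167, 285, 160.3 and 149 at E10.5, and 572, 465, 368 and 386 at E12.5. The embryos of the 3 stages did not overlap. The log2FC was 0.86 (SE 0.11, adjusted p = 2.85e-06) at E10.5 versus E8.5, 0.89 (SE 0.11, adjusted p = 1.71e-06) at E12.5 versus E10.5 and 1.75 (SE 0.11, adjusted p = 7.71e-12) over the whole interval. With signals below 1 raised to 1 in place of the constant, the last was 3.27. More cells that express a gene, or fewer, cannot be told apart from more or less RNA per cell in these pooled samples. The highest Tuba1a signal at E10.5 was in embryo 2 and at E12.5 in embryo 1, the same embryos whose summed signal of 10 neuronal marker genes was the highest of their stage (4827 and 17569), while at E8.5 Tuba1a was highest in embryo 3 and the sum in embryo 4. That sum ran from 234 to 357 at E8.5, from 2679 to 4827 at E10.5 and from 11835 to 17569 at E12.5. Of the 10 markers, 8 rose and 0 fell at E12.5 versus E8.5 (9.84% and 11% of all probes), and Nefl stayed below 0 at every stage. Embryo 2 at E10.5 and embryo 1 at E12.5 had the lowest sums of their stage for mesenchyme and neural crest markers (957 and 435). The same held for endothelial markers (389 and 525). For surface ectoderm markers embryo 1 was lowest at E12.5 (10.8, against 2642 to 3088), and at E10.5 embryo 2 was not. The part of the neuronal and the other markers in the Tuba1a result was not tested.

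Tuba1b, the alpha tubulin next to it on chromosome 15, was among the brightest probes by its mean signal over all arrays (percentile 99.91). Its signal in embryos 1 to 4 was 15447, 16029, 21169 and 15785 at E8.5, 18556, 20293, 17682 and 18525 at E10.5, and 24364, 22315, 20433 and 20557 at E12.5. Embryo 3 at E8.5 stood above the other embryos of its stage and inside the range at E12.5. The probe rose by a log2FC of 0.37 (SE 0.10, adjusted p = 0.00713) at E12.5 versus E8.5, and the log2FC was 0.15 (adjusted p = 0.507) and 0.22 (adjusted p = 0.203) for the consecutive steps. The call over the whole interval was lost with array medians aligned in place of quantile normalization (log2FC 0.19, adjusted p = 0.279) and in the left sides alone (log2FC 0.32, adjusted p = 0.18). It was also lost within the left sides of embryos 1 and 2 (adjusted p = 0.123) and of embryos 3 and 4 (adjusted p = 0.658). The same held within the right sides of embryos 3 and 4 (adjusted p = 0.304), but not within those of embryos 1 and 2.

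Tubb2b, the beta tubulin of young neurons, rose at the first step by 3 of its 4 probes, and probe 3 rose at the second step too. Probe 1 read 5861, 5190, 6014 and 6188 in embryos 1 to 4 at E8.5, 15763, 17738, 17357 and 17331 at E10.5, and 20278, 17712, 20062 and 22795 at E12.5. The embryos of E10.5 and of E12.5 lay above all those of E8.5, and those of the later stages overlapped. The log2FC was 1.53 (SE 0.11, adjusted p = 8.46e-10) at E10.5 versus E8.5, 0.25 (SE 0.11, adjusted p = 0.202) at E12.5 versus E10.5, and 1.78 (adjusted p = 9.13e-12) over the whole interval. The step between the later stages passed with the 4 array sets as a block (adjusted p = 0.00419), with the log2FC unchanged at 0.25. Probe 2 read 4266, 4402, 5507 and 5594 at E8.5, 12786, 16737, 17462 and 17151 at E10.5, and 17326, 14453, 21026 and 20293 at E12.5. It gave a log2FC of 1.67 (adjusted p = 2.01e-09), 0.19 (adjusted p = 0.505) and 1.86 (adjusted p = 5.26e-11) for the same comparisons.

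Probe 3 of Tubb2b changed more. It read 103, 137, 389 and 261 in embryos 1 to 4 at E8.5, 1552, 3200.2, 2096 and 2165 at E10.5, and 5084, 3804, 6766 and 4391 at E12.5, with no overlap between stages. Its log2FC was 2.81 (SE 0.24, adjusted p = 9.33e-09) at E10.5 versus E8.5, 1.14 (SE 0.24, adjusted p = 0.00143) at E12.5 versus E10.5 and 3.96 (SE 0.24, adjusted p = 5.3e-12) over the whole interval. In the left sides alone the step between the later stages was 0.99 and did not pass (adjusted p = 0.101). Probe 4 was at or below 0 on 24 of 24 arrays as deposited, with a log2FC of 0.04 over the whole interval (adjusted p = 0.531).

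Tubb2a, the neighbouring beta tubulin whose protein is almost the same as that of Tubb2b, had 1 probe close to background. It was at or below 0 on 17 of 24 arrays as deposited, and its mean normalized signal was −8.98 ± 2.94 at E8.5, −4.49 ± 2.91 at E10.5 and 7.10 ± 2.31 at E12.5 (SD, n = 4 each). It rose by a log2FC of 0.19 (SE 0.03, adjusted p = 7.81e-06) at E12.5 versus E8.5. At E12.5 versus E10.5 it rose by a log2FC of 0.14 (adjusted p = 0.00123), which did not pass in the left sides alone (adjusted p = 0.204) or in any of the 4 array sets alone (adjusted p from 0.14 to 0.746). The 4 embryos of E12.5 lay above 0 and those of the earlier stages below it, so no fold is given. The rise over the whole interval did not pass in either of the left array sets alone (adjusted p = 0.43 and 0.136).

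Tubb3, whose product is the antigen of a widely used neuronal antibody, had 1 probe and passed no comparison. It read 109, 99.7, 119 and 136 in embryos 1 to 4 at E8.5, 116, 127, 159.6 and 128 at E10.5, and 163, 114, 128 and 138 at E12.5. The embryos of all stages overlapped. The log2FC was 0.10 (adjusted p = 0.623), 0.02 (adjusted p = 0.954) and, over the whole interval, 0.12 (95% interval from −0.05 to 0.28, adjusted p = 0.386). On the same arrays the neuronal markers Dcx, Stmn2 and Elavl3 rose at E12.5 versus E8.5 by log2FC 5.28, 3.86 and 3.84, the largest changes of the 10 on that list. Elavl4 (log2FC −0.04, adjusted p = 0.886) and Nefl (0.02, adjusted p = 0.762), of the same list, passed no comparison. The Tubb3 probe was at percentile 84.27 of the mean signal and above 0 on every array. With array medians aligned the log2FC over the whole interval was 0.20 and passed (adjusted p = 0.0423), and in the left sides alone it was 0.22 (adjusted p = 0.0231). What the probe binds was not tested.

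The bases before the annotated start are shown for Tuba1a, which rose at every step, and Tubb3, which passed none, from the RefSeq promoter table of GRCm38.p6. The table matched 7 of the 10 genes and held no entry for Tubb2b, Tubb6 and Tubg1. Each run is the 250 bases before the start, 5′ to 3′ on the strand of the gene (chr15:98953502-98953751, minus strand, for Tuba1a and chr8:123411303-123411552, plus strand, for Tubb3). Capitals mark the CCAAT box (CCAAT) and the GC box (GGGCGG) on either strand, so ATTGG and CCGCCC also appear.
Tuba1a: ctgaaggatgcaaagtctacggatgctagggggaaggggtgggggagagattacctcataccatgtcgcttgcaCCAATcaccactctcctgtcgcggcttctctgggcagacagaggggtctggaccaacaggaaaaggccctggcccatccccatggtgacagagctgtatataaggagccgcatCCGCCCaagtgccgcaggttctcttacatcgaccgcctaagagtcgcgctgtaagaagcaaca
Tubb3: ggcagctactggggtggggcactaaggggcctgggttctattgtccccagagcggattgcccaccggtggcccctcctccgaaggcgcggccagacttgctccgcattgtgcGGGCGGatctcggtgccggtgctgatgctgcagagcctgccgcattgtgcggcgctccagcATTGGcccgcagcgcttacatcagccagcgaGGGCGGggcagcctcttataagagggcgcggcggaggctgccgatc
Tuba1a held 1 CCAAT and 1 GGGCGG and Tubb3 held 1 CCAAT and 2 GGGCGG. Of the 32851 promoters in the table, 33.8% held a CCAAT and 32.7% a GGGCGG in the same 250 bases. The exact letters of the TATA core TATAAA, held by 12.4% of promoters, were in neither run and were found only in Tubb2a among the 7. Variants such as the tatataag in the Tuba1a run were not searched for. GC content was 56.8% for Tuba1a and 68.0% for Tubb3, against a median of 52.4% over the table. These matches are a description of letters and say nothing about which factors bind.

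Tubb5, the beta tubulin of dividing and of neural cells, gave 2 readings. Probe 1 read 18051, 17750.3, 15809 and 16047 in embryos 1 to 4 at E8.5, 19437, 16860.1, 19019 and 19585 at E10.5, and 19716, 14314, 19958 and 18449 at E12.5. All stages overlapped and no comparison passed (log2FC 0.15, −0.05 and, over the whole interval, 0.10, adjusted p = 0.649). Probe 2 read 3103, 4177, 7623 and 5848 at E8.5, 5539.9, 8120.1, 6439 and 7116 at E10.5, and 8220.1, 7512, 11869 and 7737 at E12.5. It rose by a log2FC of 0.81 (SE 0.21, adjusted p = 0.00564) at E12.5 versus E8.5 although embryo 3 at E8.5 reached into the range of E12.5. Array medians aligned (log2FC 0.58, adjusted p = 0.0898) and the left sides alone (log2FC 0.68, adjusted p = 0.14) ended that call. It was also lost within the left sides of embryos 1 and 2 (adjusted p = 0.116) and of embryos 3 and 4 (adjusted p = 0.678). The same held within the right sides of embryos 3 and 4 (adjusted p = 0.0541), but not within those of embryos 1 and 2.

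Tubb6, a beta tubulin of many non-neuronal cells, varied more between the array sets than between stages. It read 328, 362, 72.0 and 102 in embryos 1 to 4 at E8.5, 421, 291, 112 and 96.8 at E10.5, and 96.9, 186, 54.2 and 55.2 at E12.5. Embryos 1 and 2 were above embryos 3 and 4 at every stage. The log2FC was 0.03 (adjusted p = 0.986) at E10.5 versus E8.5, −0.56 (SE 0.37, adjusted p = 0.503) at E12.5 versus E10.5 and −0.53 (SE 0.37, adjusted p = 0.399) over the whole interval. Of the variance within stages, 90.5% lay between the 4 array sets, against a median of 24.5% over all probes. The mean signal was 158 and 144 in the left sides of embryos 1 and 2 and of embryos 3 and 4, and 404 and 20.5 in the right sides of the same embryos. With the sets as a block, the fall at E12.5 passed against E10.5 (log2FC −0.56, adjusted p = 0.000518) and against E8.5 (log2FC −0.53, adjusted p = 0.000509). It also passed in the left sides alone (log2FC −0.49 against E8.5, adjusted p = 0.00668).

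**Figure D2:**
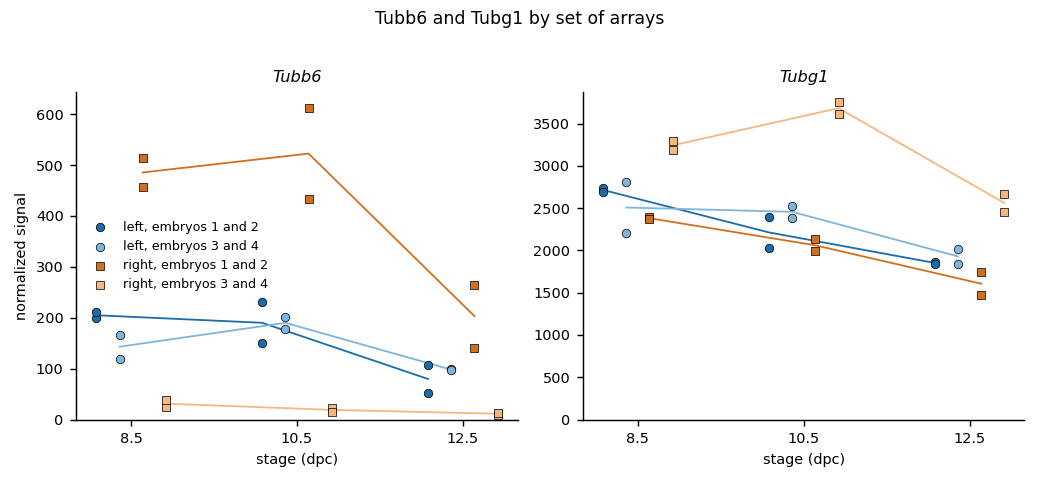
Normalized signal of Tubb6 and Tubg1 by stage (dpc), 1 point per array, with colours and markers for the 4 sets of arrays and lines through the mean of each set. The right sides of embryos 1 and 2 average 404 for Tubb6 and those of embryos 3 and 4 average 20.5, and the E12.5 mean is the lowest in each set.

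Tubg1, which encodes the widely expressed gamma tubulin, fell over the whole interval. It read 2565, 2532, 2754 and 2997 in embryos 1 to 4 at E8.5, 2194, 2081, 3070.1 and 3069.7 at E10.5, and 1804, 1656, 2148 and 2344 at E12.5. The embryos of E12.5 lay below those of E8.5, and at E10.5 embryos 1 and 2 were apart from embryos 3 and 4. The log2FC was −0.08 (adjusted p = 0.853) at E10.5 versus E8.5, −0.35 (SE 0.13, adjusted p = 0.108) at E12.5 versus E10.5 and −0.44 (SE 0.13, adjusted p = 0.0191) over the whole interval. The array sets held 83.0% of its variance within stages, with the right sides of embryos 3 and 4 highest (mean 3163, against 2016 to 2298 in the other sets). With the replicate number as a block the step between the later stages passed too (adjusted p = 0.0178), and with the array sets as a block likewise (adjusted p = 4.49e-05). The call over the whole interval was lost without embryo 1 or 2 at E12.5 or embryo 4 at E8.5 (adjusted p from 0.0629 to 0.0765) and in the right sides alone (log2FC −0.43, adjusted p = 0.396).

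Tube1, the epsilon tubulin of centrioles, fell at each step by its probe 1. It read 283, 279, 297 and 289.9 in embryos 1 to 4 at E8.5, 195, 155, 221 and 192 at E10.5, and 87.3, 88.6, 111 and 115 at E12.5, with no overlap between stages. The log2FC was −0.40 (SE 0.05, adjusted p = 1.1e-05) at E10.5 versus E8.5, −0.49 (SE 0.05, adjusted p = 4.18e-07) at E12.5 versus E10.5 and −0.89 (SE 0.05, adjusted p = 7.16e-12) over the whole interval. With signals below 1 raised to 1, the last was −1.53. Probe 2 stayed around 0 and was at or below 0 on 16 of 24 arrays as deposited. The summed signal of 7 genes of dividing cells ran from 5487 to 6299 at E8.5, from 5333 to 6323 at E10.5 and from 2635 to 3635 at E12.5. Of these 7 genes, 0 passed at E10.5 versus E8.5, where 4.91% of all probes rose and 5.8% fell. At E12.5 versus E10.5, 4 fell (4.51% of all probes). Ccna2 lay around 0 at every stage. Their part in the Tube1 result was not tested.

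**Figure D3:**
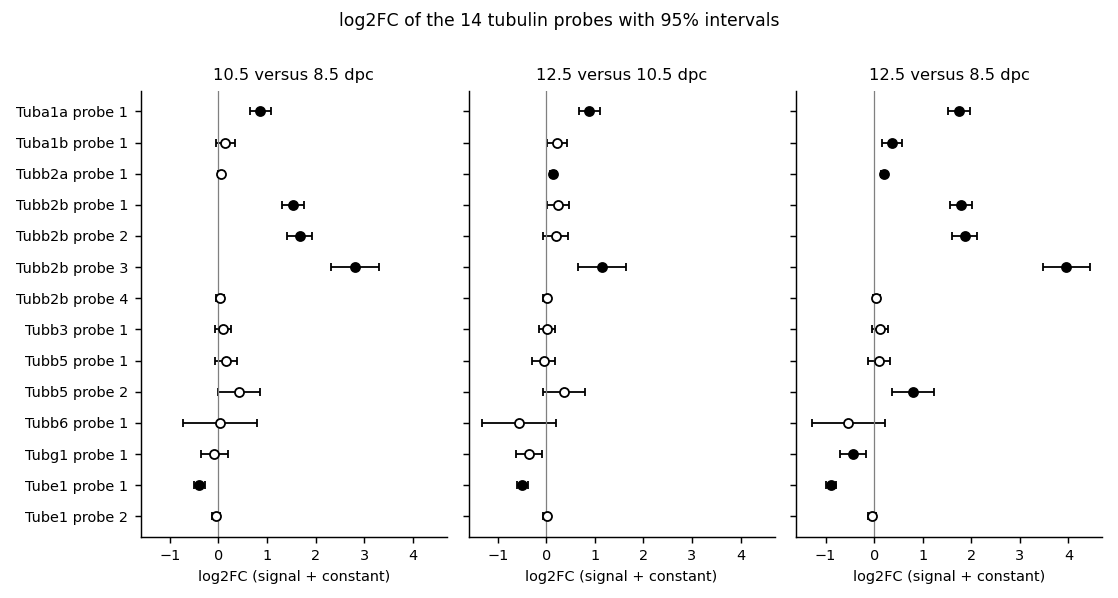
log2FC on the log2(signal + constant) scale of the 14 probes for 3 comparisons of stages, with 95% intervals; filled points passed at an adjusted p under 0.05 over all probes. Tuba1a and probes 1 to 3 of Tubb2b lie above 0 and Tube1 probe 1 below 0 at the first step, and Tubb6 has the widest intervals (SE 0.37), followed by Tubb2b probe 3 (SE 0.24).

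In the fit reported, probes of the same gene differed for Tubb2b, Tubb5 and Tube1, but the Tubb5 and Tube1 differences were lost under some alternatives. The difference in log2FC between each further probe and the brightest probe of its gene was tested over 13388 pairs of probes from 8202 genes, and 33.9% of the pairs differed at E12.5 versus E8.5. Among the tubulin genes, 4 of 5 pairs differed. The difference of probe 2 of Tubb2b from probe 1 did not pass (0.08, SE 0.08, adjusted p = 0.511), and over the 24 arrays their log2 values correlated at r = 0.9854. Probe 3 rose by 2.18 more than probe 1 (SE 0.22, adjusted p = 2.05e-08), with r = 0.9526, so the direction was shared and the size was not. Probes 1 and 2 were at percentiles 99.81 and 99.78 of the mean signal and probe 3 at 98.2. Probe 2 of Tubb5 rose by 0.71 more than probe 1 (SE 0.24, adjusted p = 0.0276), with r = 0.145 over the arrays, and that difference did not pass with cyclic loess (adjusted p = 0.112), with array medians aligned (adjusted p = 0.0707) or with embryo means (adjusted p = 0.0766). It was also lost without embryo 2 or 3 at E12.5 or embryo 1 or 2 at E8.5 (adjusted p from 0.0721 to 0.152). Probe 4 of Tubb2b (difference −1.74, adjusted p = 1.57e-11) and probe 2 of Tube1 (difference 0.85, adjusted p = 6.32e-11) differed from probe 1 while lying near background, so they give no change of their own to compare. The Tube1 pair did not pass with signals below 1 raised to 1 (adjusted p = 0.486).

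**Figure D4:**
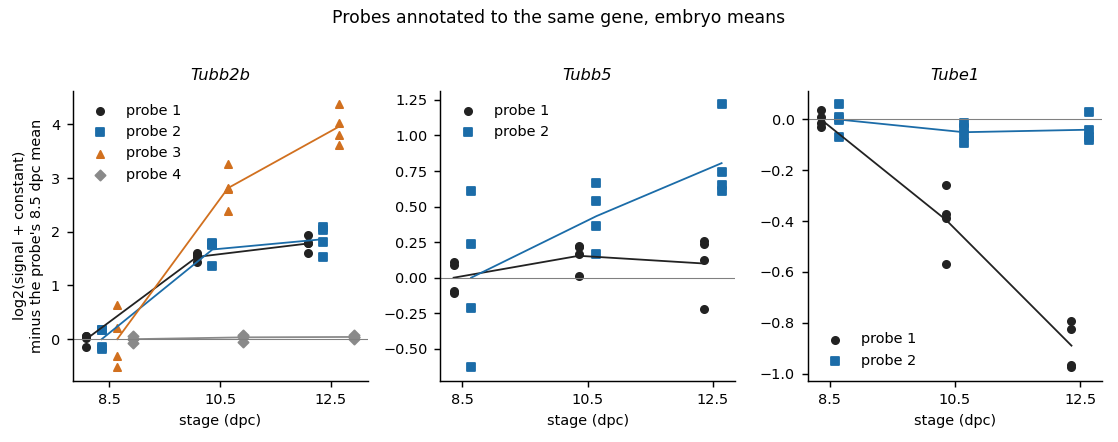
log2(signal + constant) of each probe of Tubb2b, Tubb5 and Tube1, relative to that probe's mean at E8.5, by stage (dpc); points are the 4 embryos of a stage and lines join stage means. Probes 1 and 2 of Tubb2b follow each other to 1.78 and 1.86 at E12.5, probe 3 reaches 3.96, and Tubb2b probe 4 and Tube1 probe 2 stay at 0.

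The left and right sides of the head were compared within embryos. No member probe passed in LIMMA at an adjusted p under 0.05, as was the case for 0% of all probes, while 3 member probes and 4141 of all probes had an unadjusted p under 0.05. Only Tuba1a reached a B over 1, the threshold of the methods, which 0.101% of all probes passed. Its signal was 198 on the left and 259 on the right on average, and the right side was higher in 11 of 12 embryos, with a left minus right difference of −0.25 on the log2 scale (SE 0.04, B = 2.31, adjusted p = 0.0879) and a range over the embryos of −0.49 to 0.04. The study lists this gene for its difference between the sides on the same arrays, so these values are a description and not independent evidence. The study also measured the gene by qRT-PCR and reports no consistent difference between the sides. The arrays gave a difference of −0.16, −0.36 and −0.23 at E8.5, E10.5 and E12.5, and −0.24 in embryos 1 and 2 and −0.26 in embryos 3 and 4. Within each of these groups of embryos, the side and the set of arrays cannot be told apart.

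For Tubb6, Tubg1, Tubb2b and Tubb3, among others, the sign of the difference turned with the embryo number. Tubb6 was higher on the right in 6 of 6 embryos numbered 1 and 2 (left minus right −0.88) and higher on the left in 6 of 6 embryos numbered 3 and 4 (0.90), and averaged 0.01 over all 12 (SE 0.24). Tubg1 gave 0.16 in embryos 1 and 2 and −0.44 in embryos 3 and 4, and Tubb2b probe 1 gave 0.15 and −0.45. Tubb3 gave 0.22 and −0.08, and the first of these passed in LIMMA in embryos 1 and 2 only (adjusted p = 0.0464). Tubb5 probe 1 gave 0.04 and −0.45, with a mean of −0.20 over all embryos (unadjusted p = 0.0278, adjusted p = 0.514). Tubb2a was lower on the left in 10 of 12 embryos at signals around 0 (−0.07, adjusted p = 0.439). The test of the side difference between stages passed for none of the 14 probes and for 0% of all probes (LIMMA F test, adjusted p under 0.05), while 0 member probes and 919 of all probes had an unadjusted p under 0.05.

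**Figure D5:**
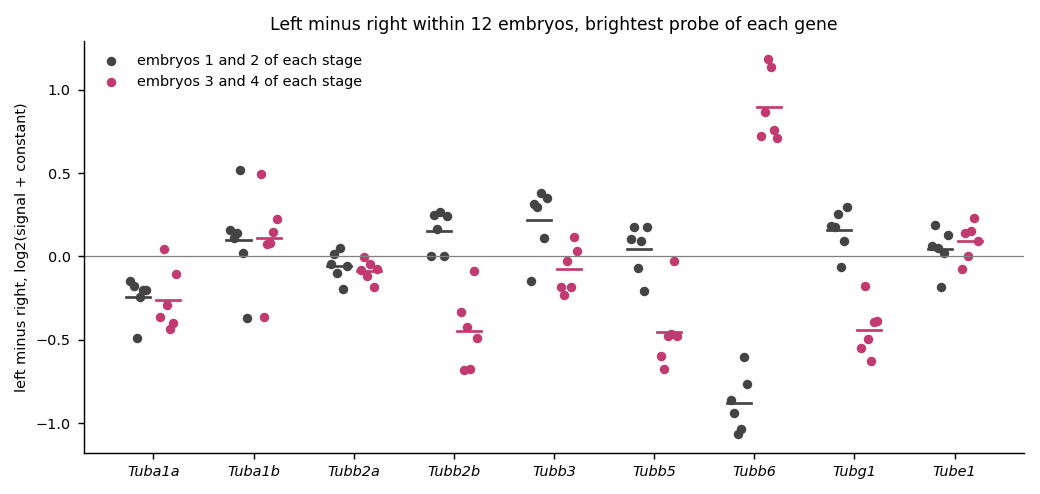
Left minus right difference in log2(signal + constant) within each of 12 embryos for the brightest probe of 9 tubulin genes; grey points are embryos 1 and 2 and pink points embryos 3 and 4 of each stage, and short lines are their means. Tuba1a lies below 0 in 11 of 12 embryos, and Tubb6 lies below 0 in embryos 1 and 2 (mean −0.88) and above 0 in embryos 3 and 4 (mean 0.90).

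Other lists were read by the brightest probe of each gene, and at E12.5 versus E8.5 9.84% of all probes rose and 11% fell. Each list of tubulin and tubulin-related genes held probes near background, where a change can be missed. Of 10 other tubulin genes, 3 rose and 1 fell in that comparison. Tubg2, a gamma tubulin enriched in brain, averaged 103, 136 and 681 at E8.5, E10.5 and E12.5 (log2FC 1.80, adjusted p = 1.77e-10 over the whole interval), Tubb4a, a beta tubulin of mature neurons and oligodendrocytes, 166, 177 and 534 (log2FC 1.18, adjusted p = 1.31e-09), and Tuba3a rose by a log2FC of 0.63. Tubb4b, a widely expressed beta tubulin, fell by 0.21 on the log2 scale. At E12.5 versus E8.5 Tubg1 and Tubg2, which encode near-identical gamma tubulins, thus had log2FC of −0.44 and 1.80. Tubb1, the beta tubulin of platelets and megakaryocytes, rose at E10.5 versus E8.5 (log2FC 0.89) and fell at E12.5 versus E10.5 by 0.72. Of the 5 measured erythroid marker genes, 4 rose at the first of these steps (4.91% of all probes) and 4 fell at the second (4.51%). Their part in the Tubb1 values was not tested.

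Among 10 genes of the gamma tubulin complex and its recruitment to the centrosome, 2 rose (9.84% of all probes) and 4 fell (11%) at E12.5 versus E8.5. Akap9, a scaffold of the Golgi and centrosome, rose by a log2FC of 1.27 and Mzt1, a small subunit of the complex, by 1.06. Tubgcp4, a subunit of the gamma tubulin ring, fell by 0.66 and Pcnt, the pericentrin scaffold, by 0.60. Of 14 genes of the CCT chaperonin and prefoldin, which fold new tubulin, counted with the CCT cofactor Pdcl3, 0 rose and 2 fell (Cct3, log2FC −0.46, and Pfdn6, −0.35), a share near the 11% of all probes that fell. The probes of Cct5, Cct7 and Pdcl3 averaged below 0 at every stage, so they cannot show whether these genes changed. Of 8 folding cofactors 2 rose, Tbcb (0.40) and Tbca (0.32), which bind newly folded alpha and beta tubulin.

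Of 19 genes for enzymes that modify tubulin and their partner subunits, 8 rose and 2 fell at E12.5 versus E8.5, where 9.84% and 11% of all probes did. Atat1, which acetylates alpha tubulin, averaged 85.9, 214 and 1057 at E8.5, E10.5 and E12.5 (log2FC 2.49, SE 0.14, adjusted p = 1.32e-12 over the whole interval). Ttl, which puts a tyrosine back on alpha tubulin, rose by 1.27, and Svbp, the partner of the vasohibins that remove that tyrosine, by 1.02. The 2 that fell were Ttll4, a polyglutamylase (−0.85), and Ttll12 (−0.51). Among 6 severing enzymes, Katnal1 rose (0.31) and Fign, fidgetin, fell (−0.67).

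Likeness to a tubulin gene was measured as Pearson's r of log2 embryo means over 12 embryos, which share the arrays and stages, among 5916 genes with a mean signal over 100. Tubb2b was most like Ckb, the brain-type creatine kinase (r = 0.9924), which averaged 1728, 17125 and 19298 at E8.5, E10.5 and E12.5, followed by Oxct1, Pou3f4, Hmgcs1 and Mfsd2a. Tube1 was most like Knop1 (r = 0.9933), with means of 882, 585 and 312, followed by Recql4, Ece2, Xpo5 and Upp1. Tubb6 was most like Lman1 (r = 0.9903), Mrpl51, C1galt1, Smap1 and Skp2, in a pattern that for Tubb6 lay mostly between the array sets. Tubb3 and Tubb5 had no such close match, with Dlg3 (r = 0.8236) and Rpl41 (r = 0.7614) the nearest. Among the members, Tube1 and Tuba1a ran opposite to each other at r = −0.9879, and Tubb3 and Tubb5 correlated with Tuba1a at r = 0.4373 and 0.1919.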

How the data were processed

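The 24 Illumina arrays hold total RNA of 12 embryonic heads, 4 per stage, with 1 array for each side. The deposited values are background-subtracted probe intensities on a linear scale, produced per the labels with GenomeStudio (the methods of the study name BeadStudio), and the quantile normalization described by the authors is not in them. The 72 per-sample columns of the other deposited table are named only by BeadChip and position and were not used, detection calls included.

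Intensities plus a constant of 119.5 (so that the lowest, −103.5, became 16) were quantile normalized across arrays and put on the log2 scale. Stages were compared in limma 3.58.1 with fixed terms for stage and side and a random embryo term (duplicateCorrelation, correlation 0.0893 for all probes), and sides with the embryo as a fixed block. A prior proportion of 0.01 was used for B, and p-values were Benjamini-Hochberg adjusted over all 46643 probes. Probes of a gene were compared on the difference of their log2 values from the brightest probe. The scripts were tested on simulated data. Precision is limited by the number of embryos, 4 per stage.

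Every probe of the 10 genes is reported. From the other lists, up to 3 genes with the largest change that passed are named, and up to 2 that passed the other way. The members, lists, named genes and array sets were chosen with earlier results of these data known. Alternatives covered the normalization, the treatment of dim signals, the blocks, the sides, the array sets and leaving out each embryo. Replicate numbers in the labels pair the sides of an embryo. Across stages, embryos of the same number deviated from their stage means together (r from 0.302 to 0.699 in 12 of 12 cases), although in only 5 of the 12 was the own number the one that correlated best, and the number was tried as a block.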

Additional observations from a re-analysis of the deposited data

Results flagged for a closer look

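In 5 of 42 groups of 4 embryos (14 probes at 3 stages), 1 embryo stood apart from the other embryos of its stage by more than Dixon's critical gap, which chance gives in about 1 of 20 groups. Tuba1a was 285 in embryo 2 at E10.5, against 149 to 167 in the others. Tuba1b was 21169 in embryo 3 at E8.5, Tubb2a was 10.55 in embryo 4 at E12.5 and Tubb5 probe 2 was 11869 in embryo 3 at E12.5, all above the rest of their stage. Tubb2b probe 2 was 12786 in embryo 1 at E10.5, below the others. These 5 probes passed at E12.5 versus E8.5 with all embryos and without each embryo in turn. Without embryo 3 at E8.5, Tubb5 probe 2 also passed at E10.5 versus E8.5 (log2FC 0.64, adjusted p = 0.0395).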

How the results depend on the processing

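Without each embryo in turn, 5 to 6 member probes passed at E10.5 versus E8.5 (5 in the fit reported), 4 to 5 at E12.5 versus E10.5 (4), 8 to 9 at E12.5 versus E8.5 (9), 3 to 4 of the pairs of probes (4), and 0 for the sides and for the side difference between stages. Other scalings, treatments of dim signals, embryo means, the fit without the embryo block and the replicate block kept these counts within 1.5 times. With the replicate block 5, 5 and 9 probes passed for the stages and 4 pairs (this alternative was chosen after seeing the data for the pairs), and apart from Tubg1 it changed no other call. With the array sets as a block 7 probes passed at E12.5 versus E10.5, and 1 within the left sides of replicates 1 and 2. Restricting to a mean signal over 50 left 11 probes and 2 pairs that differed. Left against right, 5 member probes and 4401 of all passed in replicates 1 and 2 only, and 6 and 8678 in replicates 3 and 4 only, where the sides lie on different array sets. In replicates 1 and 2 the difference turned sign and passed for Tubb2b probe 1 (0.15), Tubb6 (−0.88) and Tubg1 (0.16), and it turned sign without passing for Tubb2b probes 2 and 3, both Tubb5 probes and Tube1 probe 2. Of 1125 stage values under the alternatives, 27 lost a call, 22 gained one, 0 reversed, and in 42 the sign turned where neither fit passed. With embryo means no stage call of a tubulin probe changed. Signals near 0 (Tubb2a, Tubb2b probe 4, Tube1 probe 2) limit what those probes can show.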
